A study of Homo sapiens and Mus musculus with 12 samples.

Results

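RKO is a human colon cancer cell line. The RKO libraries came from cells with a stable, tetracycline-inducible construct whose shRNA targets ZNF280C, and they make up 6 of the 12 samples of the series; the other 6 are mouse colon. In 3 libraries the cells had received 1 ug/ml doxycycline for 72 h, which switches the shRNA on, and in 3 they had not. The members were taken by their labelled cell line and by the doxycycline label. Both groups carry the construct and grew in the same medium, RPMI1640 with fetal bovine serum. The labels name 1 shRNA and no doxycycline-treated cells without it, so an effect of doxycycline and one of the knockdown cannot be told apart. Nothing in the labels says that replicates were separate cultures, so p-values measure the spread between these samples, which may be technical. That spread is the one left after the authors' batch adjustment. Some libraries share equal values across the groups, so the 6 may not be independent.

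ZNF280C encodes a zinc finger protein of the nucleus. Cells entering division switch on genes in an ordered way: E2F factors drive genes of DNA replication, and the DREAM and MuvB complexes, with B-MYB and FOXM1, act on genes of mitosis through CCAAT elements and the cell cycle genes homology region, CHR. Genes of glycolysis and of the response to low oxygen are classical targets of hypoxia-inducible factors, which bind short elements around an ACGTG or GCGTG core.

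Because genes of mitosis, DNA replication and glycolysis were called lower below, promoters of 6 of them are shown first. They were picked from 11 promoters of such genes and of hypoxia targets called lower. All 6 hold matches to the letters below, but so do CCNA2, RFC1, CDC45 and ADM, which are not shown. Holding a match therefore does not by itself set the 6 apart. The 11 do not cover all such genes, since some chromosomes were left out and some genes had no promoter in the table. Each is written 5′ to 3′, from 250 bases before to 50 after the start, and comes from RefSeq (GRCh38.p14). In the first 4, capitals mark CCAAT, the CHR letters TTTGAA and TTCGAA, and the E2F letters TTTCCCGC and TTTGGCGC. In PGK1 and LDHA, capitals mark ACGTG and GCGTG. Each motif was searched on both strands, so a capital run can be its reverse complement, and neighbouring matches can overlap.
ANLN, chr7:36389612-36389911, plus strand: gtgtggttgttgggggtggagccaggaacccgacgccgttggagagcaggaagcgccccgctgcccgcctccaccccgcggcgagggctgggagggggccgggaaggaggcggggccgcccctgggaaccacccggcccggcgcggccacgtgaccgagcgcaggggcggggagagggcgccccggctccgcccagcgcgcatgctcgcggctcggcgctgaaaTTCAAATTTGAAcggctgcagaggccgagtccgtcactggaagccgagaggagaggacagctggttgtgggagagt
MAD2L1, chr4:120066799-120067098, minus strand: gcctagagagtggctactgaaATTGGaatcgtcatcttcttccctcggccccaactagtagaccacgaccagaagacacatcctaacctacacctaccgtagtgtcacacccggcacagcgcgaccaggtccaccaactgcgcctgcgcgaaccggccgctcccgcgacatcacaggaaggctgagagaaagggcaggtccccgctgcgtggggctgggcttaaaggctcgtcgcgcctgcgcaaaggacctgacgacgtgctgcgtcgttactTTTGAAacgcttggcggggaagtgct
PTTG1, chr5:160421605-160421904, plus strand: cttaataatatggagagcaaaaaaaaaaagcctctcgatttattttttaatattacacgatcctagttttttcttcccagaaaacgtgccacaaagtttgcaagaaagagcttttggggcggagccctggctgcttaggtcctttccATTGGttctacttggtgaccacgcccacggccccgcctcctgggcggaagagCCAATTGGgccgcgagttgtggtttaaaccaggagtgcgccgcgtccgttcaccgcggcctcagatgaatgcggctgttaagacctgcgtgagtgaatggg
POLA1, chrX:24693668-24693967, plus strand: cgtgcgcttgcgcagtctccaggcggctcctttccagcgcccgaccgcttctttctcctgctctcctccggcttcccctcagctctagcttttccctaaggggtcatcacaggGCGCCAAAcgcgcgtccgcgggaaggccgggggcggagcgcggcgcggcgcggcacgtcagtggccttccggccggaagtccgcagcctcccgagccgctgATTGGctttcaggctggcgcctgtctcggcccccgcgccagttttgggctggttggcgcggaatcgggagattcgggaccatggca
PGK1, chrX:78103998-78104297, plus strand: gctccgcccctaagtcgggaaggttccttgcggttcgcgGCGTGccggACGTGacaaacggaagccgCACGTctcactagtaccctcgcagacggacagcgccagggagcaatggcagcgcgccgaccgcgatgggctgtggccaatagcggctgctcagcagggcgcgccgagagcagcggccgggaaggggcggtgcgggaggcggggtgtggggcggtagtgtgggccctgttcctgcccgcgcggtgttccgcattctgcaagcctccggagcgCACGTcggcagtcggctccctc
LDHA, chr11:18394313-18394612, plus strand: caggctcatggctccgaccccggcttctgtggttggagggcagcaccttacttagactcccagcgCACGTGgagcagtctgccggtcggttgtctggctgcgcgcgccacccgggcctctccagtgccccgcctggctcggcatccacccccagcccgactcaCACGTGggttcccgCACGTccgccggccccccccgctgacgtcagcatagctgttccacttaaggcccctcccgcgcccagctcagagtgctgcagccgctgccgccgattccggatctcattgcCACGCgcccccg

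ANLN has 2 CHR matches just before the start, MAD2L1 has both a CCAAT and a CHR match, and PTTG1 has 3 CCAAT matches. POLA1 has a CCAAT and an E2F match. Of the 5 promoters not shown, CCNA2 and RFC1 have 1 CCAAT match each and CDC45 has 4. None of these 3 holds the CHR or E2F letters above, and other forms of the elements were not searched. ADM has 1 match to the hypoxia core and PDK1 has 0. Of the 45 G2 and mitosis genes, 38 had a promoter in the table. CCAAT was found in 30 of them (78.9%) and the CHR letters in 28 (73.7%), against 36.7% and 10.9% of the 9084 promoters of tested genes and 35.7% and 16.6% of the 27305 promoters searched. Both were found in 24 of the 38 (63.2%), against 4.63% of tested genes. The E2F letters were found in 17 of 42 DNA replication promoters (40.5%), against 3.84%. The ACGTG or GCGTG core was found in 12 of 17 glycolysis promoters (70.6%) and 16 of 21 promoters of other hypoxia targets (76.2%), against 64.2%, so most promoters of tested genes hold it. These letters are a description of the windows and not of binding.

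Signal per library summed to between 9050161 and 9195211 over 15590 genes. Signal is the deposited value after the authors' batch adjustment. The table is named as FPKM, a unit divided by transcript length, but whether length was divided out of these values was not tested, so levels are compared between libraries and not between genes. In bulk cells, fewer cells in a phase and less RNA per cell cannot be told apart. Of the 18 colon epithelium markers, 6 were in the table, among them the intestinal transcription factor CDX2 and the keratins KRT8 and KRT18. Of fibroblast and leukocyte markers only COL1A1 and CD68 were in it. The first principal component (32.7% of the variance) was negative in all 3 treated libraries and positive in all 3 untreated ones. Libraries also share exactly equal values: doxycycline replicate 2 and untreated replicate 2 have 310 genes in common (1.99%), doxycycline replicate 3 and untreated replicate 1 have 526 (3.37%), and the other 13 pairs have 0. Deviations from the group means were correlated at -0.531 and -0.336 across genes in these 2 pairs. The batches of the adjustment are not labelled, so no value within a batch can be given.

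The targeted gene checks the labels. ZNF280C signal was 123, 99.7 and 79.1 in doxycycline replicates 1, 2 and 3 and 192.5, 172 and 227 in the untreated ones. The treated libraries all lay below the untreated ones, with the narrowest gap between 123 and 172. The log2 fold change (treated minus untreated, on log2(signal + 1)) was -0.98 ± 0.15 (SE, n = 3 each, adjusted p = 0.0276 in limma; exact permutation p = 0.1, the smallest that 3 against 3 can give). The call was kept without doxycycline replicate 1 (adjusted p = 0.0294) and lost without doxycycline replicate 2 (0.0621) or 3 (0.0633) or untreated replicate 1 (0.0733), 2 (0.0892) or 3 (0.0922). Among all 15590 genes, 4 had a larger absolute change. Its relative ZNF280D, the other numbered ZNF280 gene in the table, stood at 139, 135 and 157 against 158.5, 155 and 161 and did not pass (-0.14, adjusted p = 0.328). Of 398 numbered zinc finger genes, ZNF280C and ZNF367 were lower and 0 higher, with a median of -0.01. That is 0.503% called lower, below the 0.757% of all genes, and one of the pair is the targeted gene.

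The wider response was small. Called genes, at an adjusted p under 0.05, numbered 178 of 15590 (1.14%), with 60 higher (0.385%) and 118 lower (0.757%). The median absolute change over all genes was 0.0731 on the log2 scale, the 95th percentile 0.309 and the 99th 0.493. Genes called higher had a median of 0.329 and genes called lower -0.252. Fitted changes over 1.2-fold were seen in 639 genes upward and 514 downward, of which 96 were called, and over 2-fold in 1 upward and 2 downward, of which 0 were. For 56.4% of genes the 95% interval lay within 1.2-fold, and for 99.2% within 2-fold. Against a change of at least 1.1-fold, 1 gene passed (0.00641%), HMGB2. Groups did not overlap in 3422 genes (21.9%), 1349 higher (8.65%) and 2073 lower (13.3%).

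Genes called higher had a median mean signal of 308 and genes called lower one of 657, against 202 over all genes. When genes were cut into 5 equal groups by signal, 4 were higher and 1 lower in the lowest group and 15 and 54 in the highest. The split between directions moved with scaling: 59 higher and 67 lower with equal sums, 72 and 59 with median centring, 69 and 62 with quantile normalization. The counts also moved when 1 library was left out. Without doxycycline replicate 1, 2 or 3 they were 24, 17 and 1, and without untreated replicate 1, 2 or 3 they were 3, 1 and 1. With the pairs of libraries that share equal values as a block, limma called 0 genes, with 1670 at an unadjusted p under 0.05. In this block the libraries left over, doxycycline replicate 1 and untreated replicate 3, were also put together, though they share 0 equal values.

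**Figure D1:**
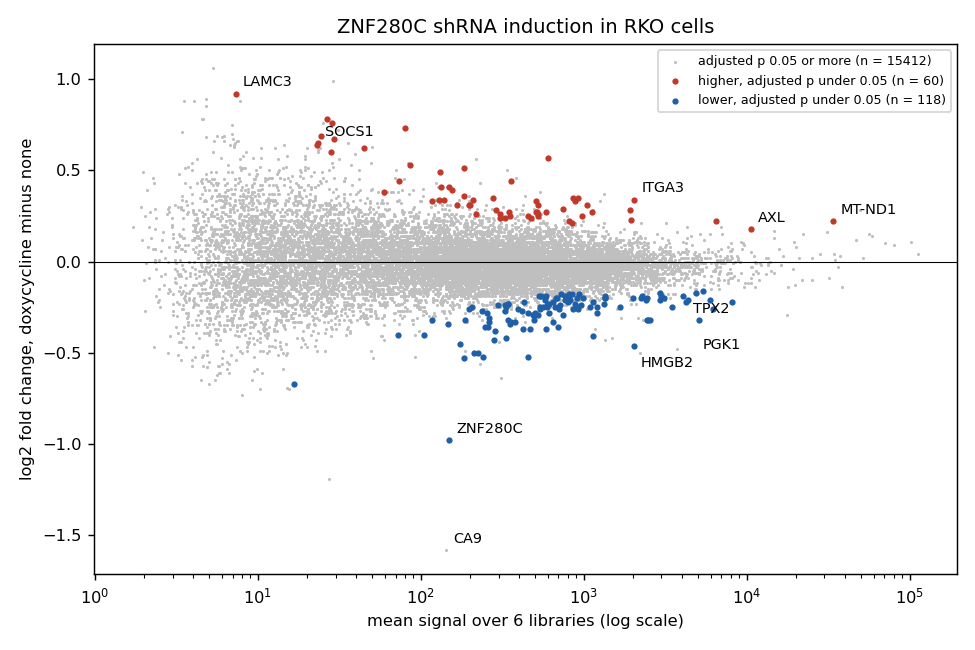
Log2 fold change of 15590 genes (vertical axis, treated minus untreated) against their mean signal over 6 libraries (log axis). Grey points did not pass, red points are the 60 genes called higher and blue points the 118 called lower; most blue points lie between -0.5 and 0.

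HMGB2, a chromatin protein that bends DNA, was the gene with the lowest adjusted p. Its signal was 1708, 1664 and 1734 with doxycycline and 2305, 2334 and 2393 without. The libraries of each group lay close together and the gap between groups exceeded the spread within them. The log2 fold change was -0.46 ± 0.03 (adjusted p = 0.00119, limma; 0.0168 against 1.1-fold). It passed in each of the 6 fits that left out 1 library, the only gene of the 178 to do so, while 153 passed in 0 of them. With pairs of libraries that share equal values as a block, its adjusted p was 0.0602, and without a trend in the variance it was 0.101.

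Of 14 high mobility group genes tested, HMGB2 included, 3 were lower (21.4%, against 0.757% of all genes), with a median of -0.10. SSRP1, a subunit of the FACT histone chaperone, was at -0.21 and HMGN2, a nucleosome-binding protein, at -0.25. HMGB1, the paralogue of HMGB2, stood at 904, 814 and 846 against 991, 980 and 893 and did not pass (-0.16, adjusted p = 0.161). With the GC trend removed the family's median was -0.04, HMGB2 stood at -0.45 and HMGN2 no longer passed (adjusted p = 0.0813).

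Of the 45 G2 and mitosis genes, 7 were called lower (15.6%, against 0.757% of all genes) and 0 higher. All 45 had a negative fold change, against 55.1% of all genes, and their median was -0.17. The median GC content of these 45 was 43.2%, and 73.5% of genes with a GC content of 41.1% to 43.3% were negative. TPX2, which targets Aurora A to the spindle, stood at 3111, 3158 and 3207 with doxycycline against 3739, 3778 and 3770 without. Every treated library lay below every untreated one by more than the spread in either group (-0.25 ± 0.03, adjusted p = 0.0152). NDC80, a kinetochore protein, was at 234, 197 and 222 against 287, 266 and 283 (-0.36). The cytokinesis scaffold ANLN (-0.25), the checkpoint protein MAD2L1 (-0.20), securin, PTTG1 (-0.21), cyclin A2, CCNA2 (-0.25), and the chromosomal passenger BIRC5 (-0.21) were the others. As mean deviation of the list from the 6-library mean, the treated libraries stood at -0.08, -0.13 and -0.03 and the untreated ones at 0.11, 0.07 and 0.04.

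STMN1, a microtubule destabiliser, fell from 2685, 2744 and 2796 to 2179, 2246 and 2173 (-0.32 ± 0.03, adjusted p = 0.0143). MZT1, a component of the gamma-tubulin ring complex, fell by 0.43 on the log2 scale (adjusted p = 0.0152). The kinetochore protein CENPK was lower (-0.34), the 1 of 18 centromere proteins that passed (5.56%, against 0.757% of all genes). The centromere proteins had a median of -0.11, and -0.065 without doxycycline replicate 2. With the trend with GC content removed, as described at the end, the median of the centromere proteins was -0.06 and CENPK did not pass (adjusted p = 0.128). Of 8 condensin genes, NCAPD2 (-0.19) and NCAPG (-0.29) were lower, against 0.757% of all genes. All 8 were negative, against 55.1% of all genes (median -0.17, and -0.13 with the GC trend removed). The median GC content of these 8 was 44.5%, and 67.4% of genes with a GC content of 43.3% to 45.8% were negative. NCAPG did not pass with the GC trend removed (adjusted p = 0.0793). Of 15 cohesin and CTCF genes, 0 passed in limma and 15 were negative, against 55.1% of all genes. Before adjustment 10 of these 15 had p under 0.05, against 17.0% of all genes. The cohesin and CTCF median was -0.14, and -0.10 with the GC trend removed. The median GC content of these 15 was 40.7%, and in the group of genes by GC content that holds this value 78.4% were negative.

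Of the 50 genes of DNA replication, 4 were lower (8.0%, against 0.757% of all genes) and 0 higher. The fold change was negative in 49 (98.0%, against 55.1%), with a median of -0.13. The median GC content of these 50 was 48.2%, and 62.3% of genes with a GC content of 45.8% to 48.3% were negative. POLA1, the catalytic subunit of DNA polymerase alpha, was at 371, 352 and 360 against 415, 447 and 436, with a gap between the groups (-0.26). CDC45, a helicase factor (-0.27), TYMS, thymidylate synthase (-0.24), and RFC1, the large clamp loader subunit (-0.18), were the others. KIAA0101, a PCNA-binding factor, fell as well (-0.34). In homologous recombination and repair, EXO1, an exonuclease, was lower (-0.25), 1 of 36 tested (2.78%, against 0.757% of all genes). The median of homologous recombination and repair genes was -0.13, and -0.084 without doxycycline replicate 2. With the GC trend removed that median was -0.06 and EXO1 did not pass (adjusted p = 0.0758). POLA1 (adjusted p = 0.0583), CDC45 (adjusted p = 0.0506) and RFC1 (adjusted p = 0.132) did not pass either, while TYMS and KIAA0101 did.

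The chromatin genes that passed were few. EZH2, the methyltransferase of Polycomb complex 2, was lower (-0.25), 1 of 30 Polycomb genes (3.33%, against 0.757% of all genes). Of 28 histone genes, H1F0 (-0.32, adjusted p = 0.0161) and HIST1H1C (-0.45), both linker histones, were lower (7.14%). Splicing factors HNRNPDL (-0.21), HNRNPA2B1 (-0.22), HNRNPC (-0.19) and HNRNPD (-0.20) were lower. They were 4 of 33 hnRNP and SR genes (12.1%). Genes such as HMGN2, HNRNPA2B1 and HNRNPC have near-identical processed copies in the genome, and their values are uncertain to the extent that shared reads were split. With the GC trend removed only HNRNPDL of these 4 passed, and the family's median moved from -0.08 to -0.03.

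**Figure D2:**
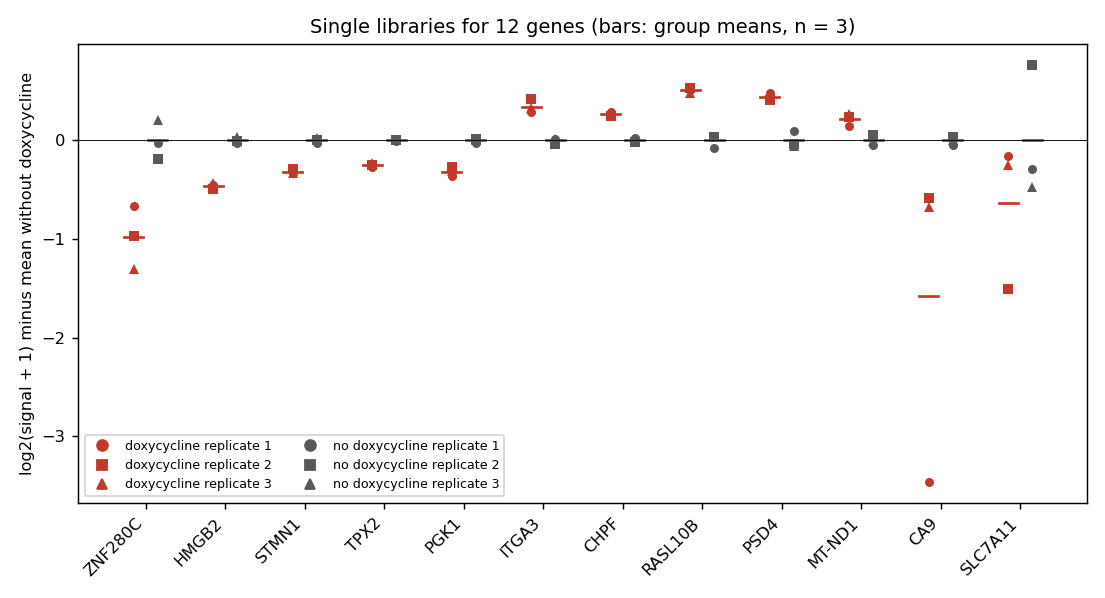
Log2(signal + 1) of 12 genes in each library, relative to the mean without doxycycline (vertical axis); red marks are treated and grey marks untreated libraries, shape gives the replicate number and bars are group means (n = 3). For HMGB2, STMN1 and TPX2 the 3 treated marks lie together below 0, while for CA9 and SLC7A11 1 treated library lies far below the others.

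Several of the largest falls were in genes of other functions. WISP3, a secreted matricellular protein, was at 13.1, 11.7 and 12.9 against 21.2, 22.4 and 18.3 (-0.67), at low signal. FITM2, which acts in lipid droplet formation, was at 165, 202 and 164 against 265, 242 and 242 (-0.50). In both genes the highest treated library was below the lowest untreated library. JDP2, an AP-1 family repressor, was at 180, 166 and 209 against 243, 293 and 248 (-0.50). The zinc finger gene ZNF367 was at 297, 277 and 276 against 407, 346 and 385 (-0.42), and the cell surface protease ADAM9 at 1050, 929 and 971 against 1298, 1265 and 1350 (-0.41, adjusted p = 0.0152). These 5 genes were named from called genes whose groups do not overlap, so the lack of overlap follows from that choice. It was seen in 21.9% of all genes. With the GC trend removed, FITM2, ZNF367 and ADAM9 still passed, while WISP3 (adjusted p = 0.0743) and JDP2 (adjusted p = 0.0544) did not.

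Glycolysis genes were lower in part. PGK1, which makes ATP in glycolysis, was at 4418, 4703 and 4576 against 5574, 5758 and 5720, a gap wider than the spread within groups (-0.32 ± 0.04, adjusted p = 0.0143). LDHA, lactate dehydrogenase A, was at 5541, 5448 and 6011 against 6957, 6803 and 6644 (-0.26). These were 2 of 17 tested genes (11.8%, against 0.757% of all genes), and 15 were negative (88.2%, against 55.1%). ALDOA (-0.29, adjusted p = 0.0665) and PGAM1 (-0.26, adjusted p = 0.0547) did not pass. The median was -0.14, and -0.15 with the GC trend removed.

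Of 28 other hypoxia targets, PDK1 (-0.26) and the peptide hormone ADM (-0.53) were lower (7.14%, against 0.757% of all genes). The fold change was negative in 25 (89.3%, against 55.1%), with a median of -0.21. CA9, a carbonic anhydrase and one of the strongest hypoxia targets, had the largest difference of any gene but did not pass (-1.58, adjusted p = 0.215). It was at 16.8, 130 and 122 with doxycycline and 190, 201 and 196 without, so 1 treated library sat far below the rest. NDRG1 (-0.50, adjusted p = 0.0547) and PFKFB4 (-0.32, adjusted p = 0.0551) did not pass either.

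The ATF4 and amino acid stress list had the lowest median of these, -0.27, but its difference sat in 2 libraries. Its mean was -0.43 in doxycycline replicate 2 and 0.32 in untreated replicate 2, and between -0.03 and 0.12 in the others, and the median for ATF4 and amino acid stress was -0.038 without doxycycline replicate 2 and -0.098 without untreated replicate 2. SLC7A11, the cystine transporter, was at 313, 123 and 293 against 284.5, 594.5 and 251. The groups overlapped. DDIT4, an mTORC1 inhibitor, was the 1 of 23 that passed (-0.52, adjusted p = 0.0335). That is 4.35% called lower, against 0.757% of all genes.

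Mitochondrially encoded transcripts lay on the other side of 0. All 13 mRNAs had positive fold changes, against 6999 of all 15590 genes. Their median was 0.13, but 0.00 under quantile normalization. MT-ND1, a complex I subunit, was called higher (7.69% against 0.385% of all genes). It was at 34930, 37090 and 37860 against 30550, 32650 and 31370 (0.22). Every treated library lay above every untreated one, as was the case for 8.65% of all genes. MTND1P23, a nuclear copy of MT-ND1 named after its values were seen, was also higher (0.28), and how reads that fit both were counted is not given in the sources used here. Of 10 tRNAs, MT-TM was higher (0.69, adjusted p = 0.0444), which is 10.0% against 0.385% of all genes. The mitochondrially encoded tRNAs had a median of 0.26, and 0.172 without doxycycline replicate 2. The 2 ribosomal RNAs, both at 0.03, did not pass. Nuclear-encoded complex I subunits had a median of -0.02 and 0 of 36 passed.

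Of the 60 genes called higher, 20 belonged to a list or family, as did 39 of the 118 called lower. ITGA3, an integrin subunit for laminins, was at 2195, 2411 and 2258 against 1818, 1761 and 1825 (0.34 ± 0.04, adjusted p = 0.0152). ITGAX, a leukocyte-type integrin subunit, was at 703, 850 and 621 against 507, 431 and 515 (0.57). LAMC3, a laminin chain, was higher at low signal, 10.3, 11.6 and 7.80 against 4.81, 4.39 and 4.87 (0.92). It was the 1 of 8 laminins that passed (12.5%, against 0.385% of all genes). LAMA5 (0.37, adjusted p = 0.0502) and LAMB2 (0.21, adjusted p = 0.0594) did not. UNC5A, a netrin receptor at 0.73, was the 1 of 7 in its family that passed (14.3%, against 0.385%). The largest change in that family, 1.06, was in a gene that did not pass. As mean deviation from the 6-library mean, the family stood at 0.00, 0.46 and 0.08 in doxycycline replicates 1, 2 and 3. In untreated replicates 1, 2 and 3 it stood at -0.16, -0.29 and -0.10. RASL10B, a Ras-like GTPase (0.51, adjusted p = 0.0143), PSD4, an exchange factor for ARF6 (0.44), CHPF, a chondroitin synthase (0.27), SOCS1 (0.65) and ASS1, argininosuccinate synthase (0.35), passed. The gap between the groups was wider than either spread for RASL10B, at 216, 219 and 211 against 143, 155 and 155, and for PSD4, at 425, 402 and 408 against 325, 295 and 291. Both were named from called genes whose groups do not overlap, so a gap follows from that choice. Among all genes, 8.65% had groups that did not overlap and were higher. CHPF was at 1246, 1214 and 1236 against 1034, 1010 and 1016. The GC trend bears on the higher genes: of the 56 with a GC value, 53 lay above the median GC content of all genes. Of these 56, 25 were still called with the trend removed, and the rest of the 60 could not be tested then. Of those named here, LAMC3 (adjusted p = 0.0698), SOCS1 (adjusted p = 0.0818) and CHPF (adjusted p = 0.0585) did not pass then. The intestinal transcription factor CDX2 rose from 181, 171 and 179 to 214, 221 and 226 (0.31, adjusted p = 0.0335). CDX2 was the 1 of 6 colon epithelium markers tested that was called (16.7%, against 0.385% of all genes). The median of these markers was -0.02, with 3 positive and 3 negative.

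Several lists showed no call in limma, where 1.14% of all genes were called, which comes to under 1 gene in the largest of these lists: 0 of 82 cytosolic ribosomal proteins (median -0.01), 0 of 74 mitochondrial ribosomal proteins (-0.04), 0 of 35 proteasome subunits (-0.06), 0 of 24 p53 targets, 0 of 23 interferon-stimulated genes, 0 of 30 cholesterol and fatty acid genes and 0 of 30 HOX genes. The medians of the last 4 lay between -0.01 and 0.01, and medians this close to 0 changed sign with scaling, as for the cytosolic ribosomal proteins (0.005 with equal sums). At an unadjusted p under 0.05 the same test gave 2656 of all genes (17.0%), 4 cytosolic and 4 mitochondrial ribosomal proteins, 8 proteasome subunits, 5 p53 targets, 1 interferon-stimulated gene, 3 cholesterol and fatty acid genes and 2 HOX genes.

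**Figure D3:**
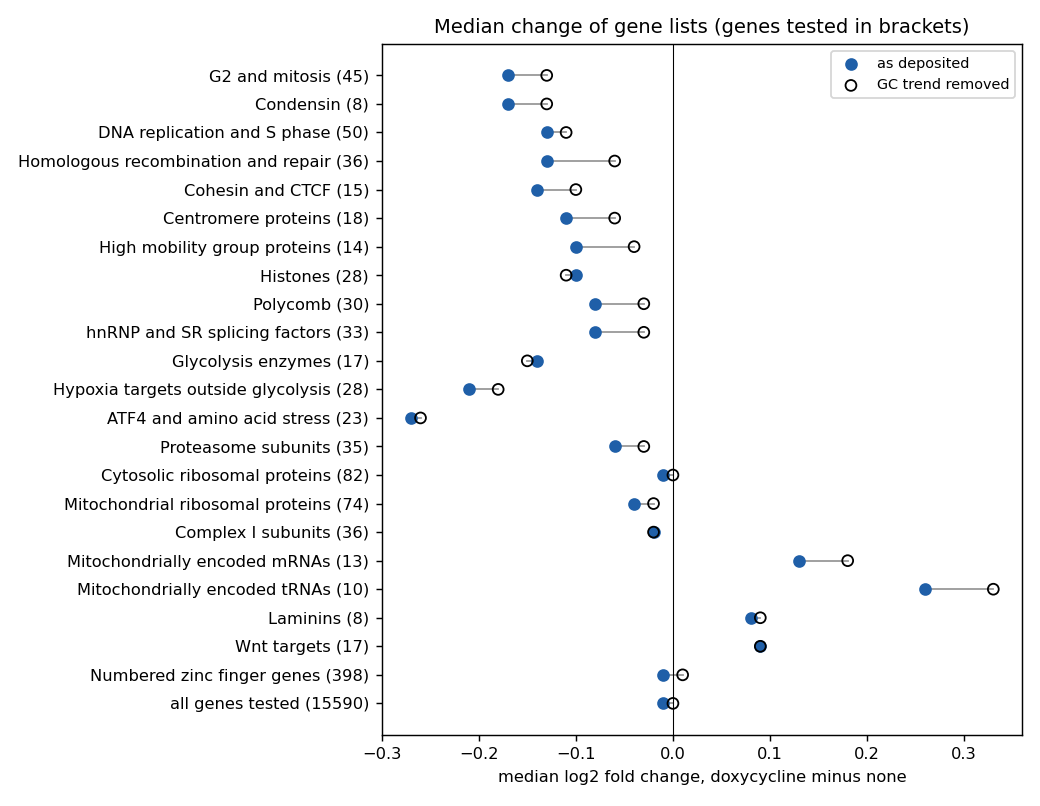
Median log2 fold change (horizontal axis) of gene lists, with the number of tested genes in brackets; filled points use the deposited values and open points the values with the GC trend removed. Lists of mitosis, replication, glycolysis and hypoxia lie left of 0 and mitochondrially encoded transcripts right of it in both; under quantile normalization, not drawn, the median of the mitochondrially encoded mRNAs was 0.00.

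**Figure D4:**
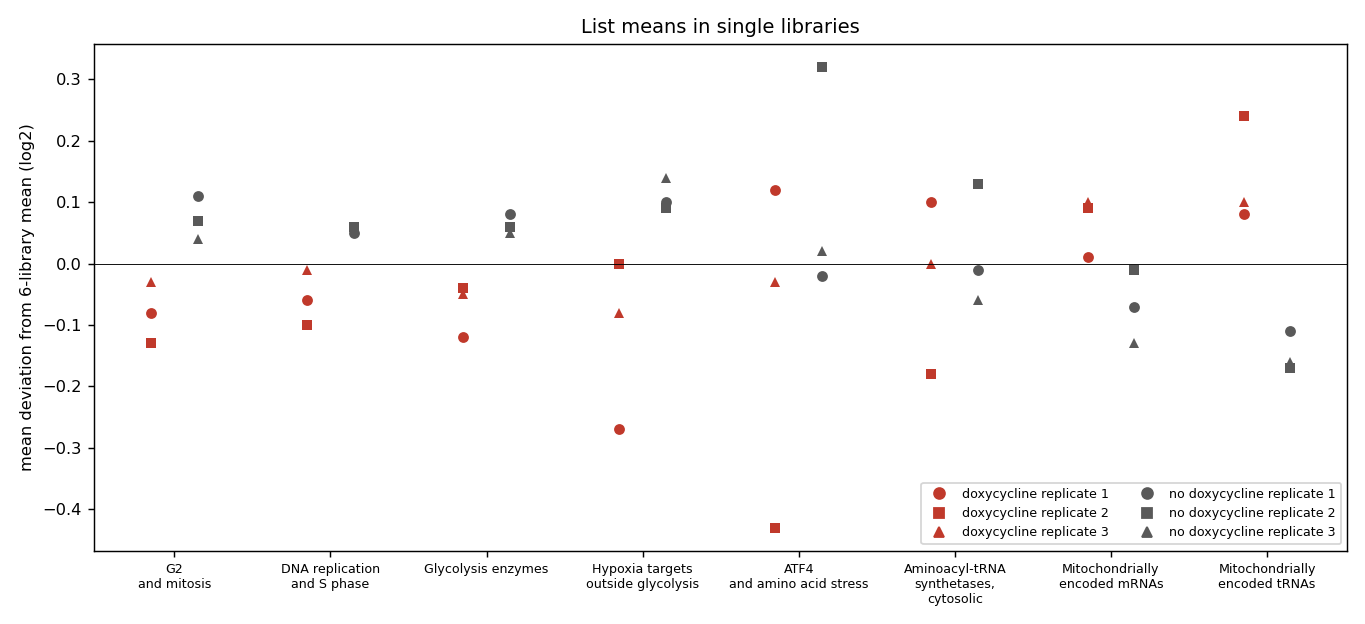
Mean deviation of 8 lists from the 6-library mean (vertical axis, log2) in each library; red marks are treated and grey marks untreated libraries. The marks of the groups separate for mitosis, replication, glycolysis, hypoxia and both mitochondrially encoded lists. For ATF4 and amino acid stress, doxycycline replicate 2 and untreated replicate 2 lie at opposite ends and the other marks overlap. The hypoxia marks of doxycycline replicates 1, 2 and 3 are -0.27, 0.00 and -0.08. Separation alone says little: solute carriers, not drawn, also separate, at 0.01, 0.02 and 0.01 with doxycycline and -0.01, -0.01 and -0.03 without.

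Fold change followed transcript GC content. Over 13118 genes with a GC value (84.1%), from the longest GENCODE transcript, the Spearman correlation with log2 fold change was 0.443 across genes, which are not independent replicates, and -0.0134 with length. The slope of each library's deviation, per 10 GC percentage points, was 0.0218, 0.0605 and 0.0075 with doxycycline and 0.0006, -0.048 and -0.0424 without. The treated slopes all lay above the untreated ones, with a difference of 0.0599 (exact permutation p = 0.1). When genes were cut into 10 equal groups by GC content, 24 were called lower and 0 higher in the lowest group, and 23 higher and 0 lower in the highest. Median GC content was 60.8% in genes called higher, 41.0% in genes called lower and 48.3% in all.

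With the trend removed in each library, 30 genes were higher (0.229% of 13118) and 58 lower (0.442%), and 25 and 43 of these had been called before. The same 13118 genes without the removal gave 73 higher and 141 lower. The share of negative fold changes in these genes went from 55.9% to 49.8%. ZNF280C was then at -0.90 (adjusted p = 0.0381), HMGB2 at -0.45, TPX2 at -0.23 (adjusted p = 0.0194) and PGK1 at -0.27 (adjusted p = 0.0194), all called. The G2 and mitosis median was -0.13 with 4 called, the replication median -0.11 with 3 and the hypoxia median -0.18 with 1. NDC80 (adjusted p = 0.0716), ANLN (adjusted p = 0.0934), MAD2L1 (adjusted p = 0.144), BIRC5 (adjusted p = 0.0506) and PDK1 (adjusted p = 0.0836) no longer passed. FOXM1 in the mitosis list, and CDT1 and TK1 in the replication list, passed then and not on the deposited values; these 3 were named after their values were seen.

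**Figure D5:**
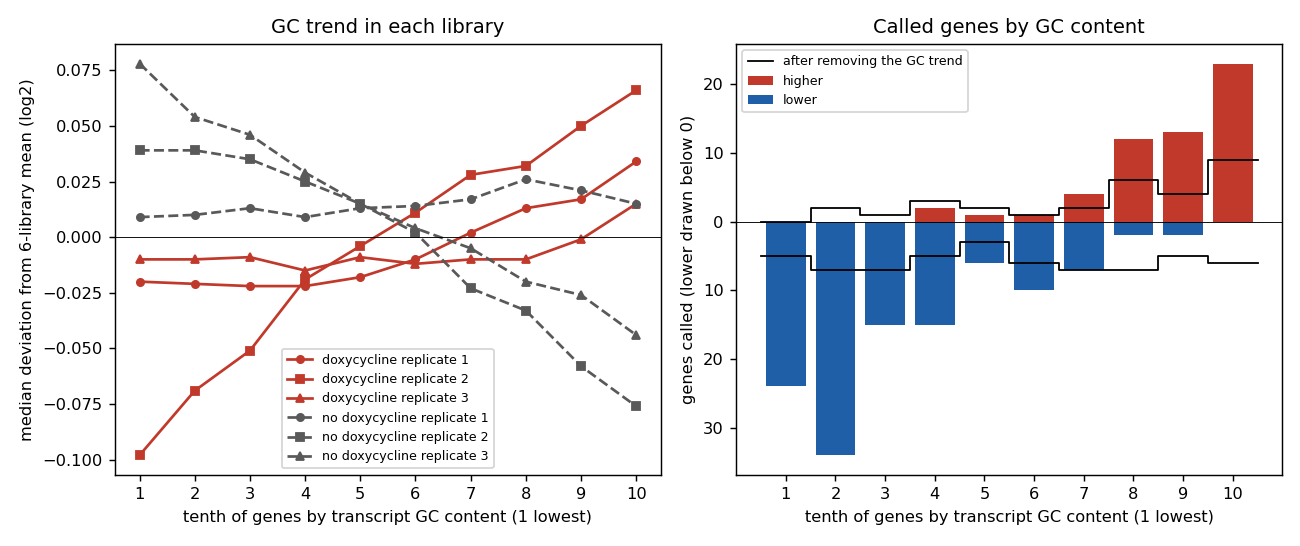
Left, median deviation from the 6-library mean (log2) in 10 groups of genes by GC content for each library; right, genes called higher (red) and lower (blue, drawn below 0) in the same groups, with black lines for the counts after the GC trend was removed. In the lowest group 24 genes were lower and in the highest 23 were higher, and after removal these counts were 5 and 9.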

How the data were processed

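RNA of 6 RKO libraries was analysed. Per the labels' protocols, polyadenylated RNA was selected, fragmented and primed with random hexamers. Tools listed per the submitters' processing notes are edgeR, HTSeq, HISAT and Bowtie2, with hg19 as the build and no versions or roles. The deposited table is named as FPKM after ComBat, but its columns sum to between 9050161 and 9195211, so the authors' values are called signal here; their batches and model are not given in the sources used here. Read depth is unknown. The table holds 15590 genes and 8 repeated symbols.

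Values were taken as log2(signal + 1) with a minimum mean of 1, which removed 0 genes. The comparison used R 4.3.3 and limma 3.58.1 (moderated test, trend in the variance, Benjamini-Hochberg adjustment over all genes). GC content came from GENCODE 29 transcripts, which matched 12539 genes by symbol and a further 579 by RefSeq synonym; a lowess (span 0.3) was subtracted per library. The procedure was tested on simulated data. Members, lists and tests were chosen with earlier results of these data known, so the lists are no independent evidence.

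Named genes were ZNF280C, HMGB2, TPX2 and PGK1, then among called genes with groups that do not overlap the 25 with the largest change in each direction, the 10 with the lowest p, and up to 4 members of each list by p. For genes named by groups that do not overlap or by lowest p, a gap between the groups follows in part from that choice. For a library that stands apart, up to 4 genes with the largest gap could be named. ANLN, BIRC5 and MAD2L1 fell outside this rule and were chosen after their values were seen. Alternatives were other pseudocounts and minimum means, 3 rescalings, no variance trend, robust estimation, blocks, removal of the GC trend and leaving out each library.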

Additional observations from a re-analysis of the deposited data

How the results depend on the processing

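The count of called genes stayed within 1.5 times of 178 with other pseudocounts, minimum means, rescalings and robust variance estimation (126 to 218), but the count of genes called lower moved to 67 with equal sums, 59 with median centring and 62 with quantile normalization. Without a variance trend limma called 0 genes (2445 had an unadjusted p under 0.05), and with pairs that share equal values as a block 0 did (1670). Same-numbered libraries had deviation correlations of 0.081, -0.531 and 0.063. These come from values after a batch adjustment whose batches are not labelled, so whether replicate numbers pair the samples cannot be told. With the replicate block 1 gene passed, 0 higher and 1 lower, and with the GC trend removed 88 did, 30 higher and 58 lower. With the GC trend removed, the replicate block left 2 (0 higher, 2 lower) and the block of pairs, which was added after seeing the data, left 1 (0 higher, 1 lower). Leaving out 1 library left 1 to 24 called genes, 0 to 9 higher and 1 to 15 lower. The 1 gene past 1.1-fold was 0 without a variance trend, with either block, with the GC trend removed and either block, and in every fit that left out 1 library. ZNF280C stayed at -0.98 but did not pass without a variance trend (adjusted p = 0.15), with the replicate block (0.0991) or with the block of pairs (0.0769), and stood at -0.90 with the GC trend removed and either block (0.134 and 0.0884). Leaving out 1 library gave -1.13 to -0.82. The GC slope difference ranged from 0.045 to 0.075 when 1 library was left out. TRIB3, which was not called, ranged from -0.66 to 0.00 and CHAC1 from -0.46 to 0.02 in those fits, both turning without doxycycline replicate 2. The cause of these changes was not tested. Read depth is unknown, so counting error could not be given.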

Other observations

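Genes called higher outside the lists included enzymes and membrane proteins. P4HTM, a prolyl hydroxylase (0.41), and PLD3, a phospholipase D family member of lysosomes (0.35), were higher. So were H6PD, a dehydrogenase of the endoplasmic reticulum (0.35), and RHBDF2, an inactive rhomboid protein (0.36). Among genes called lower were YEATS4, a chromatin reader (-0.38), LPIN2, a phosphatidate phosphatase (-0.37), CREB5, a transcription factor (-0.37), and NEK7, a kinase (-0.33). All of these genes were named from called genes whose groups do not overlap. The lack of overlap, seen in 21.9% of all genes, follows from that choice.

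FOS, an immediate early gene, stood at 191, 417 and 194 with doxycycline and 160, 149 and 201 without, so that doxycycline replicate 2 was the highest of the 6. Genes set apart by 1 library, by over 0.5 on the log2 scale with the other 2 of its group within 0.25 and a mean signal of at least 20, numbered 44 above and 5 below in that library, and at most 11 above and 24 below in each other library.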
